A study of Rattus norvegicus with 9 samples.

Results

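Collagens, the other structural proteins of the extracellular matrix and the integrins that bind them were followed in the hearts of rats with heart failure (HF). The genes were chosen by a rule on their symbols from 2 deposited tables of gene values, with earlier results of these data known. The tables list only genes that passed the adjusted p threshold of the study, so membership depended on the values too. By this rule 68 of the 5760 genes in either table were found. Of these, 57 were among the 4288 genes in the table named for Cal and model. The table named for model and sham held 22 among its 2458 genes, and 11 were in both. The 68 genes comprised 6 fibrillar collagens, 8 other collagens outside the basement membrane, 14 basement membrane genes, 14 integrin subunits, 10 genes of elastic fibres and collagen cross-linking, 9 proteoglycan and hyaluronan genes and 7 matricellular or adhesive glycoproteins.

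RNA of 9 hearts was sequenced, 3 from each of 3 groups of male Sprague Dawley rats, whose age is not given in the sources used here. Rats of the Control group had a sham operation, and those of the Model and Cal groups had the left anterior descending coronary artery ligated. The Cal group received calycosin (Cal), an isoflavone of Astragalus root, by mouth at 80 mg/kg per day for 28 days from the day after surgery, and the Control and Model groups received distilled water. The labels give the tissue as heart, and which region of the infarcted hearts was taken is not given, so infarct, border and remote muscle cannot be told apart. In bulk tissue, fewer cells of a type and less RNA per cell cannot be told apart either.

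The names of the groups in the tables did not match one another. In the first table, the 3 sample columns headed Model averaged to the mean column named Cal in 4288 of 4288 genes, and those headed Cal averaged to the mean column named Model. In the second table, whose only sample columns were headed Cal and Con, those headed Cal averaged to the mean column named Model in 2458 of 2458 genes. Libraries are therefore called here by the heading of their own column, as Cal-headed, Model-headed and Con-headed, and if the mean columns were right, Cal-headed would mean Model and Model-headed would mean Cal in every direction below. Both tables held the same Cal-headed libraries, since whole reads recovered from them were equal in 986 of 986 shared genes.

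Values were normalized counts, that is, reads per gene divided by a size factor for each library, and the listed genes took between 2860826 and 4659882 reads per library. The tables list only genes that passed the adjusted p threshold of the study, so passing a test here is the background and not a result: 99.6% of all listed genes of the first table and 99.8% of the second passed the adjusted p alone, and the 3 libraries of one group did not overlap those of the other in 98.2% and 97.4% of them. A gene was called when its adjusted p (limma, Benjamini-Hochberg over all listed genes of the table) was under 0.05 and its log2 fold change was beyond 1. An exact permutation test of 3 libraries against 3 cannot go below p = 0.1, so single genes are also described by whether their libraries overlap. The limma adjusted p values printed for single genes come from lists that had already passed the threshold of the study, and carry that limit.

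The extracellular matrix of the heart is a network of fibrillar collagens that carries tension, with basement membranes of collagen IV, laminin, nidogen and perlecan around each cardiomyocyte and capillary. Elastin and fibrillin give recoil, lysyl oxidases cross-link collagen and elastin, and matricellular proteins such as the thrombospondins and tenascin C signal to cells more than they bear load. Integrins are pairs of an alpha and a beta subunit that tie this network to the cytoskeleton, each pair with its own ligands.

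In the Cal and model table, more matrix genes were called higher than lower in the Cal-headed libraries, while 4 integrins were called higher and 7 lower, or 4 and 4 under median-ratio scaling. Of the 57 members, 46 were called (80.7%, against 60.1% of all listed genes), 31 of them higher (54.4%, against 28.4%) and 15 lower (26.3%, against 31.6%) in the Cal-headed libraries. The median log2 fold change was 1.04 over the 57 members and −0.52 over all 4288 listed genes. With Col26a1, which had no read in the Model-headed libraries, set at its lower bound, the medians were 1.01 over the members and 1.03 over the other collagens. Fibrillar collagens had a median of 1.15, other collagens 1.21, basement membrane genes 0.81, elastic fibre and cross-linking genes 1.13, matricellular genes 1.10, proteoglycan and hyaluronan genes 0.19, and the 11 integrin subunits −1.27. The 3 Cal-headed libraries did not overlap the 3 Model-headed ones in any of the 57 members. This was near the level of the table, since 98.2% of all listed genes did not overlap either.

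The size of these differences depended in part on how the libraries were scaled. In both tables the alternative scalings were computed on the listed genes alone, nearly all of which differed between the groups. Such scaling rests on mostly unchanged genes, so the alternatives show the dependence and do not correct the deposited size factors. Quantile normalization moved the median of all listed genes from −0.52 to −0.10 and median-ratio scaling moved it to −0.23, and the share of all calls that were higher in the Cal-headed libraries went from 47.3% to 54.2% and 61.1%. Among the members, 34 were then called higher and 15 lower under quantile normalization, and 35 higher and 11 lower under median-ratio scaling. The calls of 8 members rested on log2 fold changes within 0.1 of the limit (Col1a2, Col6a1, Col6a2, Hspg2, Lamb3, Sdc1, Sparc and Tnxb).

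**Figure D1:**
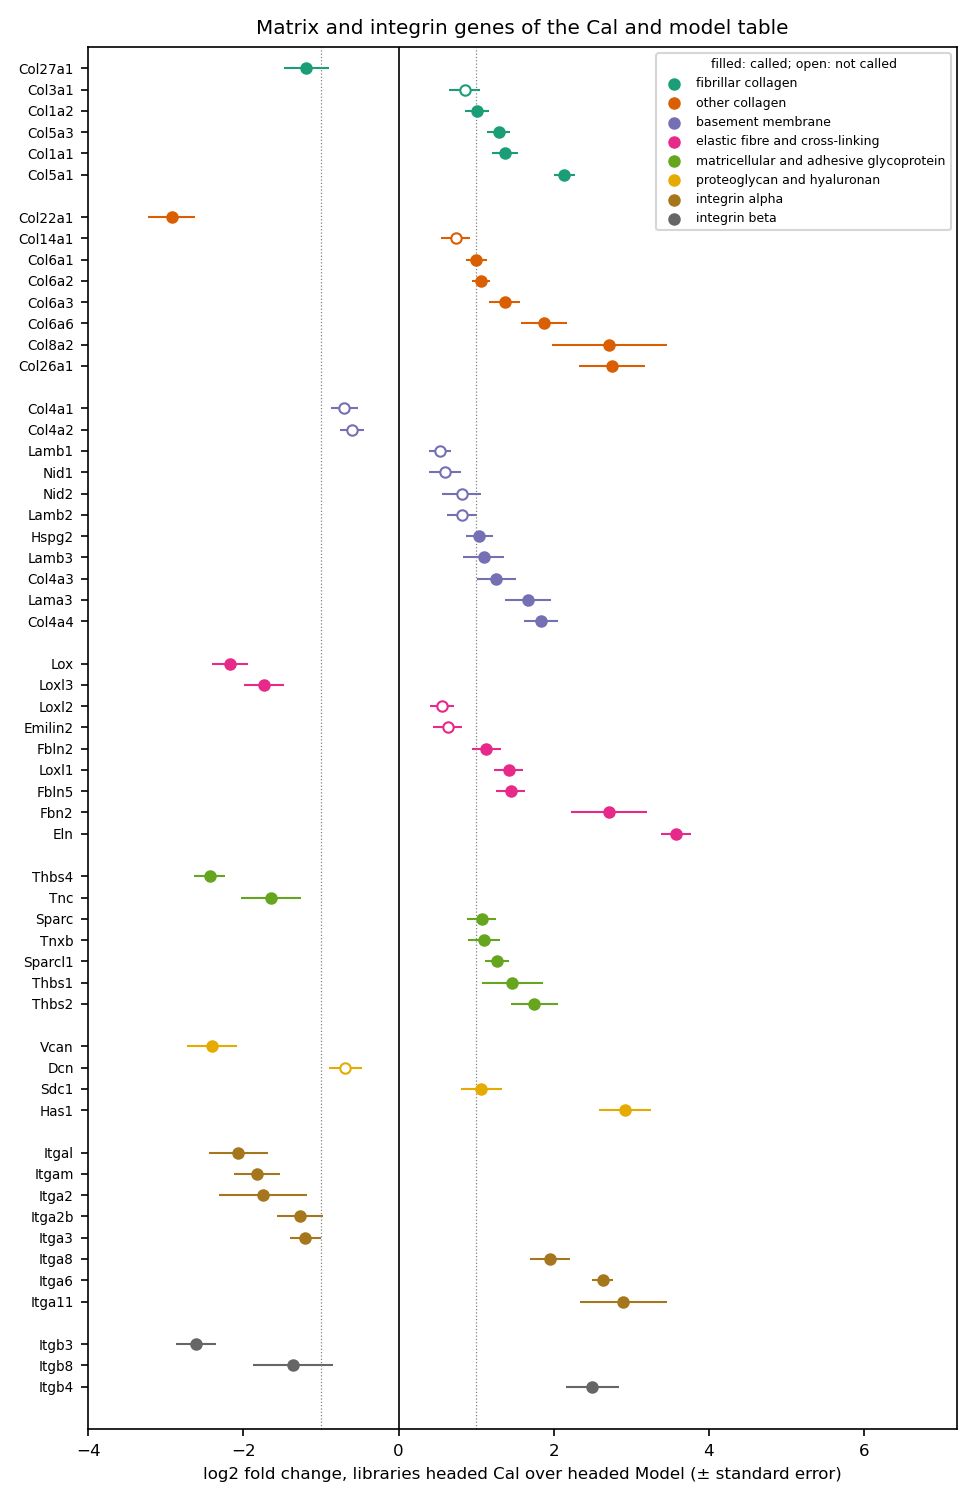
Log2 fold change (x axis) of 56 matrix and integrin genes of the Cal and model table, Cal-headed over Model-headed libraries, with the limma standard error as bars, grouped and coloured by kind; filled circles were called and open circles were not. Most collagens lie to the right of 0, Col22a1 lies farthest to the left at −2.92 and Eln farthest to the right at 3.58, and the integrins fall on both sides; Col4a1, Col4a2 and Dcn move to the right of 0 under quantile normalization.

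Fibrillar collagens were higher in the Cal-headed libraries for 4 of the 6 listed genes, lower for 1 and not called for 1, out of 11 fibrillar collagens looked for. Col1a1, which encodes the alpha 1 chain of collagen I, the chief tensile collagen of scar and interstitium, had normalized counts of 2739, 2298 and 2764 in the Cal-headed libraries and 916, 891 and 1217 in the Model-headed ones. All 3 Cal-headed libraries lay above all Model-headed ones, with a log2 fold change of 1.38 (SE 0.17, limma adjusted p = 0.000514). Its partner chain Col1a2 had 3217, 2591 and 3317 against 1324, 1692 and 1513, a log2 fold change of 1.01 (SE 0.16) that fell under the limit, to between 0.92 and 0.96, without Model-headed library 1, Cal-headed library 1 or Cal-headed library 3. Within a library, Col1a1 stood at 0.857 ± 0.027 (SD, n = 3) of Col1a2 in the Cal-headed hearts and at 0.675 ± 0.140 in the Model-headed ones. The libraries did not overlap but came close, at 0.833 in Cal-headed library 3 and 0.805 in Model-headed library 3. The ratio of Col1a1 to Col3a1 overlapped between the groups, at 0.464 ± 0.026 and 0.345 ± 0.163.

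Col3a1, the collagen III gene of thin compliant fibrils, had the highest level per kb of gene length among the listed fibrillar collagens, 570 normalized counts per kb in the Cal-headed and 322 in the Model-headed libraries. Its libraries read 5655, 5293 and 5840 against 3591, 3606 and 2284. The log2 fold change of 0.85 (SE 0.20, limma adjusted p = 0.00565) was under the limit, so Col3a1 was not called. It was called under quantile normalization, at 1.53 (adjusted p = 0.000334), and under median-ratio scaling, at 1.15 (adjusted p = 0.000961).

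Collagen V sits in the core of collagen I fibrils and sets their diameter, and its chain gene Col5a1 differed most in this group. It had 1172, 1209 and 1290 normalized counts in the Cal-headed libraries against 300, 257 and 275. That is a mean of 1224 ± 60.8 against 278 ± 21.6 (SD, n = 3), with a log2 fold change of 2.14 (SE 0.13, limma adjusted p = 8.93e-05). Col5a3, a minor chain of the same type, had a mean of 450 ± 45.1 against 183 ± 5.64 and a log2 fold change of 1.29 (SE 0.15).

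Col27a1, a fibrillar collagen best known from cartilage, went the other way. It had 89.5, 138 and 91.4 normalized counts in the Cal-headed libraries and 168, 320 and 253 in the Model-headed ones. The groups did not overlap, and the log2 fold change was −1.19 (SE 0.29, limma adjusted p = 0.00634), which became −0.98 without Model-headed library 2 and −0.89 under median-ratio scaling, both under the limit.

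**Figure D2:**
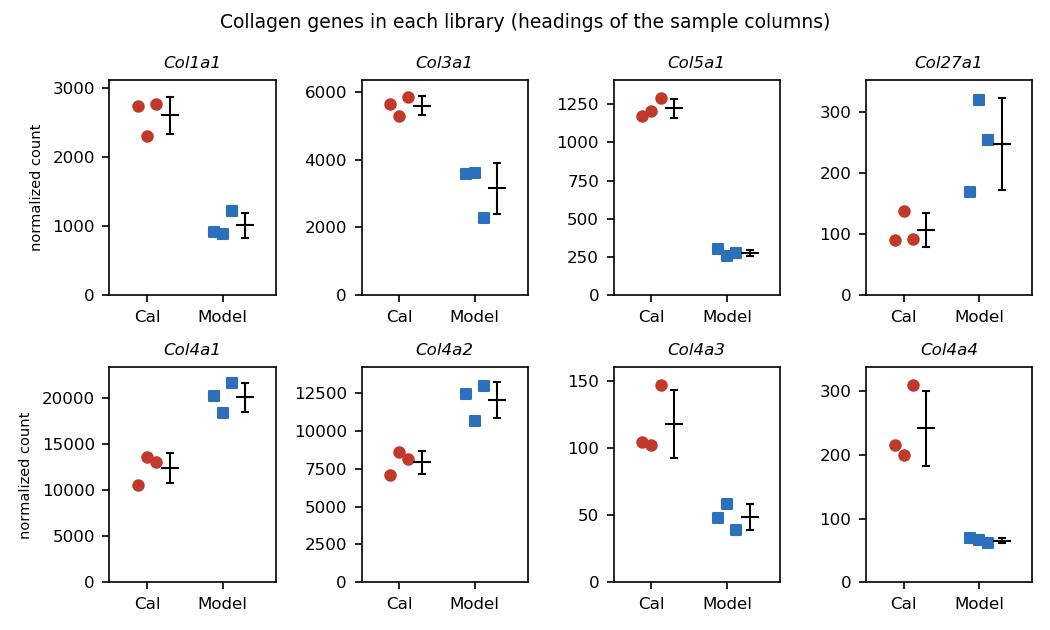
Normalized counts (y axis, from 0) of 4 fibrillar collagen genes (upper row) and 4 collagen IV genes (lower row) in each Cal-headed (red circles) and Model-headed (blue squares) library, with mean and SD in black, n = 3. Col5a1 shows the widest gap of the upper row, 1224 against 278, and in the lower row Col4a1 and Col4a2 were lower while Col4a3 and Col4a4 were higher in the Cal-headed libraries, an order that quantile normalization turned for Col4a1 and Col4a2.

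Of the other collagens, 6 of the 8 listed genes were called higher in the Cal-headed libraries, 1 was called lower and 1 was not called. The number called higher was 5 with edgeR or DESeq2, 4 with a pseudocount of 10 and 7 under median-ratio scaling. Collagen VI, the beaded microfibril that lies between cells and the fibrillar network, supplied 4 of the 6. Col6a1 had 1817, 1711 and 1945 normalized counts against 876, 841 and 1024, and Col6a2, its neighbour in the genome, had 1802, 1743 and 1857 against 910, 841 and 833. Their log2 fold changes were 1.00 (SE 0.13) and 1.06 (SE 0.12), at the limit, and the ratio of Col6a1 to Col6a2 within a library overlapped between groups (1.01 ± 0.033 against 1.06 ± 0.144, SD, n = 3). Col6a3, the largest of the classical chains, had a log2 fold change of 1.37 (SE 0.20), and Col6a6, a later-described chain that can take its place, had 1.88 (SE 0.29), with 169, 97.6 and 168 against 32.4, 34.1 and 47.9 normalized counts.

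The remaining collagens were of low level or of restricted sites. Col22a1, found at tissue junctions such as that of muscle and tendon, had 5.53, 7.51 and 4.27 normalized counts in the Cal-headed libraries against 52.9, 46.3 and 48.9, a log2 fold change of −2.92 (SE 0.30, limma adjusted p = 0.000303), with at most 8 reads in a Cal-headed library. Col8a2, a short-chain collagen of vessel and corneal membranes, had 17.5, 6.57 and 29.9 against 2.16, 0 and 3.83, and its log2 fold change of 2.72 (SE 0.74) became 2.06 without Model-headed library 2 and between 1.15 and 3.98 with other pseudocounts. Col26a1 had no read in any Model-headed library and 6, 7 and 6 reads in the Cal-headed ones, which is at least 1.78-fold higher when 3 counts per library are taken as the floor. Col14a1, a fibril-associated collagen, was not called, at a log2 fold change of 0.74 (SE 0.18), or was called at 1.03 under median-ratio scaling.

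The basement membrane list had 12 listed genes of 22 looked for, of which 5 were called higher in the Cal-headed libraries and 6 were not called. Its collagen IV chains come in gene pairs that lie head to head and are transcribed away from a shared stretch, and the chains of a pair differed in the same direction here. The stretches between the starts are shown because each pair shares one, as given by RefSeq for the rat assembly GRCr8. Between the starts of Col4a1 and Col4a2 there are 76 bases, at chr16:84885521-84885596 (plus strand). For Col4a3 and Col4a4, whose starts lie 412 bases apart, the 250 bases before each start are given, at chr9:91323740-91323989 (plus strand) and chr9:91323578-91323827 (minus strand). Capitals mark the GC box, GGGCGG on either strand.
Col4a1-Col4a2: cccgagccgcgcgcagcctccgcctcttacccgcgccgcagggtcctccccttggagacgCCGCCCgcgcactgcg
Col4a3: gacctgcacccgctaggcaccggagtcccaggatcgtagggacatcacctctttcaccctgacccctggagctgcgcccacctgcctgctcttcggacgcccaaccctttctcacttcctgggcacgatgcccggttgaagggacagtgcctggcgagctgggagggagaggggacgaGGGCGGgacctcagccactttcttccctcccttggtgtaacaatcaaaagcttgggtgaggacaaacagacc
Col4a4: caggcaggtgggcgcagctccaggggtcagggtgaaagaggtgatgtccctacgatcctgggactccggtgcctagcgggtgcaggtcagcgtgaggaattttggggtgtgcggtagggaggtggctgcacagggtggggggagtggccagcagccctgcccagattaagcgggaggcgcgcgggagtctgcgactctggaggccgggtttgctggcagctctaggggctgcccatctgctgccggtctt

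These stretches were rich in G and C. The 250 bases before the start held 75.2% G and C for Col4a1, 74.4% for Col4a2, 62% for Col4a3 and 66.4% for Col4a4, against a median of 51.2% over all 33469 such windows. A GC box lay in the Col4a1-Col4a2 stretch and before Col4a3, and these letters were not in the window of Col4a4. A match is a description of the letters and not evidence of binding.

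Col4a1 and Col4a2, whose chains form the common collagen IV of nearly all basement membranes, were the most abundant basement membrane genes listed, at 1667 and 1196 normalized counts per kb in the Cal-headed libraries and 2692 and 1814 in the Model-headed ones. Col4a1 had 10617, 13574 and 13130 normalized counts in the Cal-headed libraries against 20234, 18428 and 21625, and Col4a2 had 7067, 8570 and 8123 against 12388, 10668 and 12963. The groups did not overlap in either gene, yet the log2 fold changes of −0.70 (SE 0.17) and −0.60 (SE 0.16) were under the limit and close to the −0.52 median of all listed genes, and quantile normalization turned them to 0.30 (adjusted p = 0.243) and 0.17 (adjusted p = 0.484). The direction of this pair therefore depended on whether the deposited scaling or quantile normalization of the listed genes was used.

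Col4a3 and Col4a4, whose chains join a collagen IV network best known from the filtering membrane of the kidney, were called higher. Col4a3 had 104, 102 and 147 normalized counts in the Cal-headed libraries against 47.5, 58.5 and 39.3, a log2 fold change of 1.26 (SE 0.25, limma adjusted p = 0.00297). Col4a4 had 215, 200 and 308 against 69.1, 65.9 and 61.3, a log2 fold change of 1.84 (SE 0.22, limma adjusted p = 0.000471). They remained far below the common pair: within a library, Col4a1 had 108 ± 22.3 times the normalized count of Col4a3 in the Cal-headed hearts and 430 ± 118 times in the Model-headed ones (SD, n = 3). These ratios do not depend on the size factor of a library, their groups did not overlap, and the pairs of genes were chosen after their values were seen. Within the head-to-head pairs the sizes were not equal: Col4a4 was 2.04 ± 0.075 times Col4a3 in the Cal-headed and 1.38 ± 0.227 times in the Model-headed hearts, and Col4a1 was 1.57 ± 0.059 and 1.68 ± 0.048 times Col4a2, again with no overlap.

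Among the laminins, the cross-shaped trimers that organise the basement membrane, Lama3 and Lamb3 were called higher. Lama3, an alpha chain of epithelial laminins, had 75.6, 55.4 and 82.0 normalized counts in the Cal-headed libraries against 25.9, 24.4 and 15.3 (log2 fold change 1.67, SE 0.30). Lamb3, a beta chain of epithelial laminins, had 227, 208 and 210 against 75.6, 89.0 and 149 (1.10, SE 0.27, and 0.90 without Model-headed library 1). In both genes all 3 Cal-headed libraries lay above the Model-headed ones.

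Lamb1 and Lamb2, the beta chains of the laminins of muscle and vessel, were higher in the Cal-headed libraries by log2 fold changes of 0.53 (SE 0.14) and 0.81 (SE 0.19) and were not called. Nid1 and Nid2, the nidogens that bridge laminin to collagen IV, were likewise not called at 0.60 (SE 0.20) and 0.81 (SE 0.25), and the adjusted p of Nid1 rose to 0.0604 and 0.0710 without Cal-headed library 1 or 3. Under quantile normalization Lamb1 (1.08), Lamb2 (1.48) and Nid1 (1.14) were called higher, and under median-ratio scaling Lamb2 (1.11) and Nid2 (1.11) were. Hspg2, which encodes perlecan, the large heparan sulfate proteoglycan of basement membranes, had 9668, 9535 and 9441 normalized counts against 5535, 3800 and 4723. Its log2 fold change was 1.04 (SE 0.17, limma adjusted p = 0.00144) and 0.90 without Model-headed library 2.

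Elastin, fibrillin and fibulin genes were called higher in the Cal-headed libraries, and of the enzymes that cross-link elastin and collagen some were called lower. Of the 9 listed genes of this group 5 were called higher, 2 lower and 2 not called. Eln, which encodes elastin, had the largest rise of all 57 members, with 941, 1094 and 1087 normalized counts in the Cal-headed libraries against 72.4, 111 and 79.6. The means were 1041 ± 86.6 and 87.6 ± 20.5 (SD, n = 3), and the log2 fold change was 3.58 (SE 0.20, limma adjusted p = 7.65e-05). Fbn2, the fibrillin of developing microfibrils, was low, with 37.8, 44.1 and 36.7 against 8.64, 7.32 and 1.92 (log2 fold change 2.71, SE 0.48). Fbln5, which ties elastin to microfibrils and to cells, rose by 1.45 (SE 0.19) and Fbln2 by 1.13 (SE 0.19), the latter falling to 0.95 without Model-headed library 1.

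The lysyl oxidases divided. Lox, the founding enzyme of collagen and elastin cross-linking, had 107, 165 and 138 normalized counts in the Cal-headed libraries against 675, 712 and 475, a log2 fold change of −2.17 (SE 0.23, limma adjusted p = 0.000317). Loxl3 was also lower, at −1.74 (SE 0.26), with 89.5, 52.6 and 78.6 against 201, 298 and 236. Loxl1, the family member most closely tied to elastin, was higher, with 747, 750 and 719 against 238, 241 and 365 (1.42, SE 0.19). Loxl2 was not called at 0.56 (SE 0.15), nor was Emilin2, an elastin-interface glycoprotein, at 0.63 (SE 0.18). Within a library, Eln was 7.76 ± 1.09 times Lox in the Cal-headed hearts and 0.144 ± 0.032 times in the Model-headed ones (SD, n = 3), and this pair too was chosen after its values were seen.

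All 7 listed matricellular and adhesive glycoproteins were called, 5 higher and 2 lower. Sparc, a collagen-binding glycoprotein needed for collagen deposition, had the highest level per kb of the 57 members in the Cal-headed libraries, 2310 against 1109 normalized counts per kb. Its libraries read 7926, 8581 and 9744 against 5040, 4146 and 3419, with a log2 fold change of 1.07 (SE 0.18) that was 0.93 without Model-headed library 3 and 0.99 without Cal-headed library 3. Its relative Sparcl1 had 5538, 4612 and 5672 against 1864, 2354 and 2353 (1.27, SE 0.16). Thbs2, a thrombospondin of fibroblasts, had 374, 222 and 409 against 70.2, 121 and 103 (1.75, SE 0.30).

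Thbs1, the thrombospondin that can activate latent transforming growth factor beta, had 4619, 9079 and 5225 normalized counts in the Cal-headed libraries against 1302, 3489 and 2285. Cal-headed library 2 stood well above its group, and the log2 fold change was 1.47 (SE 0.39, limma adjusted p = 0.00877). Tnxb, a tenascin that orders collagen fibrils, had a log2 fold change of 1.10 (SE 0.21), and 0.97 and 0.99 without Model-headed library 1 or Cal-headed library 3. Thbs4, a thrombospondin of muscle and tendon matrix, had 110, 83.5 and 133 against 541, 607 and 599, and was called lower at −2.43 (SE 0.20, limma adjusted p = 0.000178). Tnc, the tenascin that is re-expressed in wounds, had 46.1, 109 and 45.3 against 151, 262 and 181 and was called lower at −1.64 (SE 0.38).

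Among the proteoglycan and hyaluronan genes, 2 of 4 were called higher and 1 lower. Vcan, the large hyaluronan-binding proteoglycan versican of provisional matrix, had 413, 662 and 418 normalized counts in the Cal-headed libraries against 2500, 3934 and 1725, a log2 fold change of −2.40 (SE 0.32, limma adjusted p = 0.000697). Has1, a hyaluronan synthase, had 201, 453 and 312 against 40.0, 50.0 and 30.7 (2.92, SE 0.33). Sdc1, a cell-surface heparan sulfate proteoglycan, had 143, 107 and 137 against 43.2, 73.2 and 70.0 (1.07, SE 0.27), and was under the limit at 0.83 without Model-headed library 1, 0.99 without Cal-headed library 1 and 0.95 under quantile normalization. Dcn, the small proteoglycan decorin that coats collagen fibrils, was not called at −0.68 (SE 0.21) and turned to 0.15 (adjusted p = 0.531) under quantile normalization.

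All 11 listed integrin subunits of 27 looked for were called, 4 higher and 7 lower in the Cal-headed libraries. Under median-ratio scaling the 4 higher ones were still called and 3 of the lower ones, Itga2b (−0.99), Itga3 (−0.90) and Itgb8 (−1.06, adjusted p = 0.0677), were not. The 4 that were higher were subunits of receptors for laminin, collagen and RGD-bearing matrix proteins. This did not set them apart, since Itga3, a laminin receptor chain, and Itga2, a collagen receptor chain, were among the lower ones. Itga6, the alpha chain of the laminin receptors, had 1673, 1614 and 1673 normalized counts in the Cal-headed libraries against 298, 254 and 248, with means of 1654 ± 33.9 and 267 ± 27.3 (SD, n = 3) and a log2 fold change of 2.63 (SE 0.13, limma adjusted p = 7.65e-05). Itgb4, its partner in the hemidesmosome receptor, had 38.7, 36.6 and 47.0 against 5.40, 9.76 and 4.79 (2.50, SE 0.34), with at most 8 reads in a Model-headed library. The ratio of Itga6 to Itgb4 within a library overlapped between the groups, at 41.0 ± 4.66 and 44.3 ± 16.0.

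Itga8, which pairs with beta 1 and marks mesenchymal cells, had 105, 71.3 and 113 normalized counts against 21.6, 26.8 and 23.0 (log2 fold change 1.95, SE 0.26). Itga11, the alpha chain of a collagen receptor of fibroblasts, had 60.0, 46.0 and 82.8 against 3.24, 6.10 and 18.2. Model-headed library 3 was the highest of its group, and the log2 fold change of 2.90 (SE 0.56) became 3.50 without it. With a pseudocount of 10 and all libraries it was 1.97.

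The 7 lower subunits included those of platelets and leukocytes. Itgb3, the beta chain of the platelet fibrinogen receptor and of the vitronectin receptor, had 59.0, 99.5 and 58.1 normalized counts in the Cal-headed libraries against 495, 463 and 351 (log2 fold change −2.61, SE 0.26, limma adjusted p = 0.000286). Itga2b, the platelet-specific alpha chain that pairs with it, had 11.1, 9.39 and 10.2 against 22.7, 23.2 and 33.5 (−1.27, SE 0.30, and −0.84 with a pseudocount of 10). The ratio of Itgb3 to Itga2b overlapped between the groups, with 5.33, 10.6 and 5.67 in the Cal-headed libraries and 21.8, 20.0 and 10.5 in the Model-headed ones.

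Itgam, the alpha chain of the myeloid receptor Mac-1, had 49.8, 50.7 and 47.0 normalized counts against 266, 170 and 123 (−1.83, SE 0.29). Itgal, the alpha chain of the leukocyte receptor LFA-1, had 14.8, 16.9 and 36.7 against 118, 74.4 and 86.3 (−2.07, SE 0.38). Beside these leukocyte integrins, all 6 neutrophil markers looked for (S100a8, S100a9, Csf3r, Cxcr2, Mmp8 and Ngp) were called lower in the Cal-headed libraries, their summed normalized count being 77.5 to 237 against 984 to 1107. By contrast, 5 of 7 macrophage and monocyte markers were listed, all higher in the Cal-headed libraries and 3 of them called, with sums of 6552 to 6964 against 2368 to 3656. The part of these cell types in the integrin values was not tested.

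Itga3, a laminin receptor chain, had 235, 165 and 196 normalized counts against 469, 374 and 532 (−1.20, SE 0.20). Itga2, a collagen receptor chain of platelets and epithelia, had 14.8, 18.8 and 17.9 against 90.7, 105 and 22.0 (−1.75, SE 0.57, limma adjusted p = 0.0176), and Model-headed library 3 came near the Cal-headed libraries. Without it the log2 fold change was −2.45, and without Model-headed library 1, Model-headed library 2 or Cal-headed library 1 the adjusted p was 0.0515 to 0.0659. Itgb8, a chain that frees transforming growth factor beta from its latent complex, had 40.6, 29.1 and 41.0 against 105, 193 and 42.2 (−1.36, SE 0.51, limma adjusted p = 0.0317), and its call was lost without any of 5 libraries, all but Model-headed library 3, at adjusted p of 0.0536 to 0.0958.

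**Figure D3:**
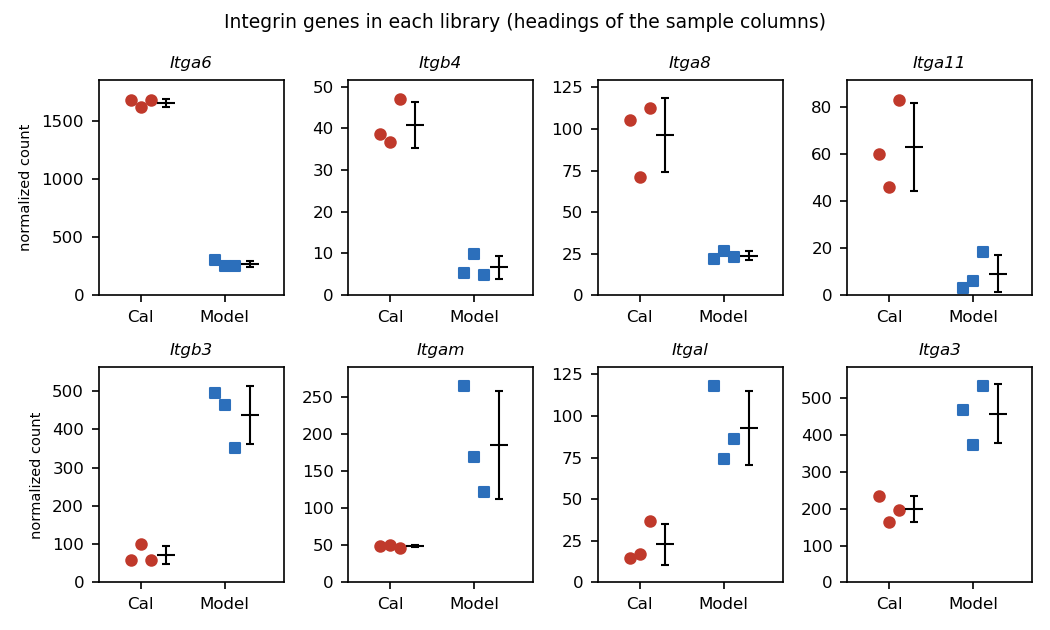
Normalized counts (y axis, from 0) of 8 integrin subunit genes in each Cal-headed (red circles) and Model-headed (blue squares) library, with mean and SD in black, n = 3. The upper row shows the 4 subunits that were higher in the Cal-headed libraries and the lower row 4 of the 7 that were lower, with Itga6 and Itgb3 the most separated.

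Genes that build or read this matrix without being part of it were looked at for context. Of 24 collagen assembly genes looked for, 7 were listed, 2 called higher in the Cal-headed libraries and 2 lower. Colgalt2, a collagen galactosyltransferase, rose by 3.42 on the log2 scale (SE 0.30) and P3h3, a prolyl 3-hydroxylase relative, by 1.10 (SE 0.21). Tll1, a procollagen C-proteinase, had a log2 fold change of −2.62 (SE 0.24) and Plod3, a lysyl hydroxylase, −1.10 (SE 0.16). Of 23 integrin adaptor genes, 10 were listed, 3 called higher and 2 lower. Ilk, the integrin-linked kinase, had 2.29 (SE 0.49) and at most 30.0 normalized counts in a library, its partner Lims2 had 1.89 (SE 0.34), the leukocyte adaptor Apbb1ip had −1.63 (SE 0.20) and the kinase gene Ptk2b −1.04 (SE 0.27).

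Markers of other cells were also looked at. The 6 listed endothelial markers of 7 were all higher in the Cal-headed libraries and 3 were called, with sums of 12136 to 14394 against 5382 to 6606. Only Dpt and Pi16 of 7 fibroblast markers were listed, higher and not called, with sums of 2851 to 3263 against 1648 to 2074. Of 4 myofibroblast markers only Acta2 was listed, at a log2 fold change of 0.55 (SE 0.12), and of 5 smooth muscle and pericyte markers only Myh11, at 0.60 (SE 0.16). None of the 8 cardiomyocyte, 4 T cell and 3 B cell markers was listed in this table. The part of cell composition in the matrix values was not tested.

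In the model and sham table, whose sample columns were headed Cal and Con, fewer members were listed and most differences were small. Of the 22 members, 8 were called (36.4%, against 29.0% of all listed genes), 7 higher in the Cal-headed libraries (31.8%, against 18.0%) and 1 lower (4.55%, against 10.9%). The median log2 fold change was 0.32 over the members and 0.37 over all 2458 listed genes, so the members as a whole lay at the level of the table. Quantile normalization gave 6 called higher and 3 lower and median-ratio scaling 5 and 2, and under them the median of all listed genes was −0.04 and 0.09, with 47.4% and 43.4% of all calls higher in the Cal-headed libraries in place of 62.2%. These comparisons share the Cal-headed libraries with the first table and are not independent of it.

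Has1 and Sdc4 had the largest log2 fold changes of the 22 members. Sdc4, the syndecan that acts with integrins in focal adhesions, had 4064, 4412 and 4597 normalized counts in the Cal-headed libraries against 393, 356 and 331 in the Con-headed ones. The means were 4357 ± 271 and 360 ± 31.3 (SD, n = 3) and the log2 fold change was 3.60 (SE 0.10, limma adjusted p = 1.33e-07), while Sdc2, another syndecan, was lower but not called at −0.43 (SE 0.08). The 250 bases before the Sdc4 start are shown because this member had the smallest adjusted p of the 22, from RefSeq for GRCr8 at chr3:173592924-173593173 (minus strand). Capitals mark GC boxes, GGGCGG on either strand, of which there were 5, a pair of them overlapping, and a kappa-B site that runs straight into the third of them.
Sdc4: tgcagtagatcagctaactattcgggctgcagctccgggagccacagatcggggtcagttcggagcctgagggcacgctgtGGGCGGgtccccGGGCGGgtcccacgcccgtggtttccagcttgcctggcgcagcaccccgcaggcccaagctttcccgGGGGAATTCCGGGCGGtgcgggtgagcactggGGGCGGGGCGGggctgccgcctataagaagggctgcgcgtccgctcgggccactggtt

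Such windows were found by symbol for 46 of the 68 members. Each member had a single window, while the background held every window, without that reduction or a selection by kind of gene. The shares below therefore compare unlike sets. A GC box was present in 58.7% of these 46 and in 30.5% of all 33469 windows of the same length, and a kappa-B site in 15.2% and 6.33%. CCAAT on either strand was present in 28.3% of the members and 34% of all windows, TATAAA in 6.52% and 12.9%, and the AP-1 site TGANTCA in 4.35% and 6.34%. The CArG box was found in 0 of the 46 and in 1.5% of all windows, which says only that its letters were not in these windows.

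The hyaluronan synthases, which spin hyaluronan out through the plasma membrane, did not move alike. Has1 had 225, 508 and 348 normalized counts in the Cal-headed libraries against 11.2, 7.86 and 4.05 (log2 fold change 5.39, SE 0.39, limma adjusted p = 1.50e-05), with at most 12 reads in a Con-headed library. Its log2 fold change was 4.33 with a pseudocount of 10. Has2, the chief synthase of heart development, had 86.7, 253 and 174 against 22.4, 20.6 and 29.4 (2.66, SE 0.37). Has3 had 18.6, 16.8 and 20.0 against 64.3, 47.1 and 49.6 and was the 1 member called lower (−1.48, SE 0.24, limma adjusted p = 0.00126).

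The other called members were Thbs1, Itga5, Loxl4 and Tnc, all higher in the Cal-headed libraries. Thbs1 had 5167, 10180 and 5825 normalized counts against 1666, 831 and 593 (log2 fold change 2.85, SE 0.38). Itga5, the alpha chain of the fibronectin receptor, had 2725, 2834 and 3139 against 1148, 988 and 968 (1.49, SE 0.10, limma adjusted p = 9.31e-06). In Thbs1, Has1 and Has2, Cal-headed library 2 was the highest of its group, and no library of either group overlapped the other.

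Loxl4 and Tnc rested on fewer libraries. Loxl4, a lysyl oxidase relative, had 81.5, 81.0 and 77.1 normalized counts against 58.7, 15.7 and 39.5, and its log2 fold change of 1.24 (SE 0.42) was 0.72 without Con-headed library 2 and 0.96 (adjusted p = 0.0660) under median-ratio scaling. Tnc had 51.6, 122 and 50.5 against 51.2, 24.6 and 28.3, the only member of the table whose groups overlapped, and its log2 fold change of 1.03 (SE 0.41, limma adjusted p = 0.0350) became 0.62 (adjusted p = 0.116) without Cal-headed library 2. Its adjusted p was also above the threshold without Con-headed library 2 or 3, at 0.112 and 0.0974, and under quantile normalization and median-ratio scaling, at 0.0858 and 0.123.

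The integrin, basement membrane and small proteoglycan genes that were not called differed by smaller amounts. Itga1, a collagen receptor chain, had a log2 fold change of −0.63 (SE 0.16), Itga6 −0.44 (SE 0.08) and Itga8 −0.79 (SE 0.20). Itga1 was called lower under quantile normalization (−1.07) and Itga8 under median-ratio scaling (−1.07). Itga7, the muscle laminin receptor chain, stood at 0.31 (SE 0.10) in the deposited scaling and −0.14 under quantile normalization. The laminin chain genes Lama5 and Lamb2 stood at 0.43 (SE 0.10) and 0.38 (SE 0.08), near the 0.37 of all listed genes, and at −0.04 and −0.07 under quantile normalization, while Lama4, of vessel and muscle laminins, stood at −0.27 (SE 0.07).

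Lum, the small proteoglycan lumican, had 1225, 985 and 1117 normalized counts against 1828, 1693 and 1753 (−0.67, SE 0.10, or −1.12 and called under quantile normalization), and Dcn stood at −0.34 (SE 0.11). Col27a1, the only collagen listed in this table, had 100, 155 and 102 against 67.1, 62.9 and 71.9 (0.78, SE 0.21) and was not called. Sparcl1 and Thbs2 were lower without being called, at −0.48 (SE 0.11) and −0.65 (SE 0.23). Without Con-headed library 3, Thbs2 stood at −0.52 (limma adjusted p = 0.085). Emilin2 stood at 0.34 (SE 0.10), or −0.04 under quantile normalization.

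**Figure D4:**
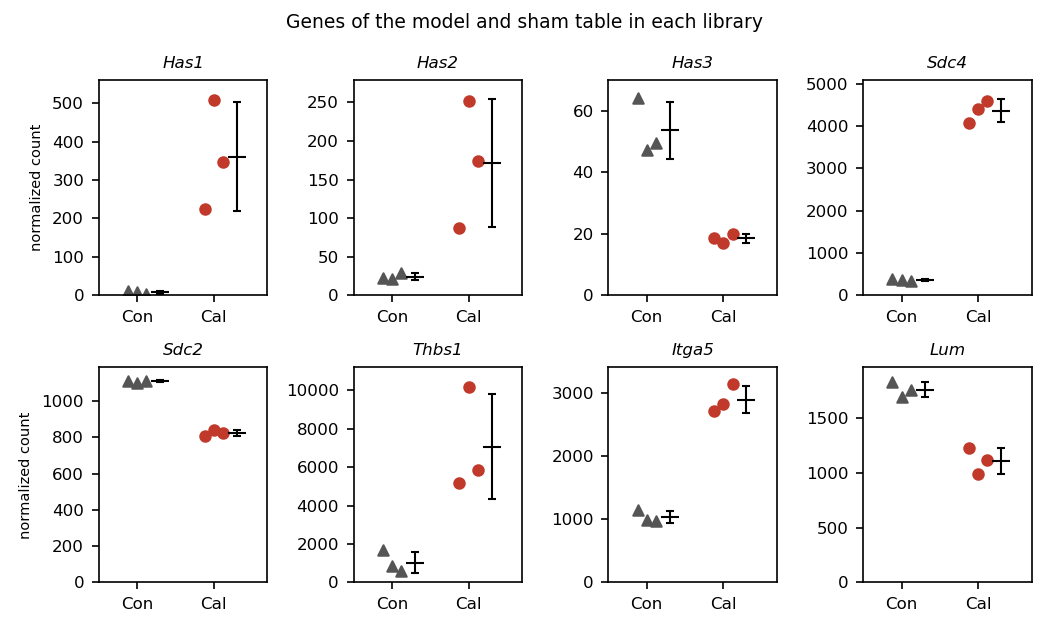
Normalized counts (y axis, from 0) of 8 genes of the model and sham table in each Con-headed (grey triangles) and Cal-headed (red circles) library, with mean and SD in black, n = 3. Has1, Has2, Sdc4, Thbs1 and Itga5 were called higher and Has3 lower in the Cal-headed libraries, while Sdc2 and Lum were lower and not called.

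Cell markers were looked at in this table as well. The 5 listed endothelial markers were all lower in the Cal-headed libraries, with sums of 12146 to 14064 against 19512 to 22159 and only Kdr called, and the fibroblast markers Pdgfra and Tcf21 were lower, with sums of 495 to 602 against 1189 to 1243 and only Pdgfra called. S100a8 and S100a9, the 2 neutrophil markers listed, were called higher, with sums of 48.5 to 183 against 13.0 to 28.5. The macrophage and monocyte markers Cd14 and Mrc1 went opposite ways, at 3.44 (SE 0.20) and −0.49 (SE 0.09). Of 5 smooth muscle and pericyte markers, 4 were listed and none was called. Pdgfrb (−0.69, SE 0.16), Rgs5 (−0.52, SE 0.10) and Myh11 (−0.34, SE 0.12) were lower and Des (0.51, SE 0.09) was higher. Acta2, the only myofibroblast marker listed, was lower and not called at −0.35 (SE 0.08). The cardiomyocyte markers Myh6 and Ryr2 were abundant in every library, their sum being 360760 to 362830 against 267190 to 338080, and none of the T cell or B cell markers was listed. The part of these cell types in the member values was not tested.

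Of the context lists in this table, 2 collagen assembly genes were listed and neither was called, Serpinh1, the collagen chaperone, at 0.30 (SE 0.07) and Colgalt2 at −0.60 (SE 0.13). Of the 8 listed integrin adaptors 2 were called, both higher in the Cal-headed libraries, Ilk at 2.12 (SE 0.56) and Bcar1, a docking protein of focal adhesions, at 1.21 (SE 0.12). Lims2 and Apbb1ip had the lowest values, at −0.81 (SE 0.20) and −0.67 (SE 0.18), and were not called.

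The 11 members of both tables could be followed through all 9 libraries, with the Con-headed values set on the scale of the first table through the shared Cal-headed libraries. The tables were normalized separately, so these levels are a description with no test. In Itga6, Itga8, Sparcl1 and Thbs2 the order was Model-headed, Cal-headed, Con-headed from lowest to highest, and no neighbours overlapped. Itga6, for example, had a mean of 267 ± 27.3, 1654 ± 33.9 and 2249 ± 125 normalized counts in that order (SD, n = 3), and Sparcl1 had 2190 ± 283, 5274 ± 577 and 7343 ± 808.

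Col27a1 and Tnc ran the opposite way, from Con-headed through Cal-headed to Model-headed. Col27a1 had means of 60.2 ± 4.03, 106 ± 27.5 and 247 ± 75.7 with no overlap. Its log2 fold change of Cal-headed over Con-headed libraries fell from 0.78 to 0.50 under median-ratio scaling (limma adjusted p = 0.0631). Tnc had means of 31.0 ± 12.9, 66.8 ± 36.5 and 198 ± 57.4, where the Con-headed and Cal-headed libraries overlapped. In Has1 and Thbs1 the Cal-headed libraries were the highest and the Con-headed the lowest. Has1 had 6.88 ± 3.19 in the Con-headed, 40.2 ± 9.67 in the Model-headed and 322 ± 126 in the Cal-headed libraries without overlap, whereas in Thbs1 the Con-headed libraries (530 to 1490) overlapped the Model-headed ones (1302 to 3489).

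The last 3 shared members did not separate the Con-headed from the Model-headed libraries. Lamb2 and Emilin2 were highest in the Cal-headed libraries, at 4898 ± 325 and 821 ± 44.0, but against the Con-headed libraries quantile normalization turned both, to log2 fold changes of −0.07 and −0.04. Dcn was lowest there, at 8610 ± 1228 against 10835 ± 708 in the Con-headed and 13976 ± 3068 in the Model-headed libraries, an order that quantile normalization did not keep between the Cal-headed and Model-headed ones.

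**Figure D5:**
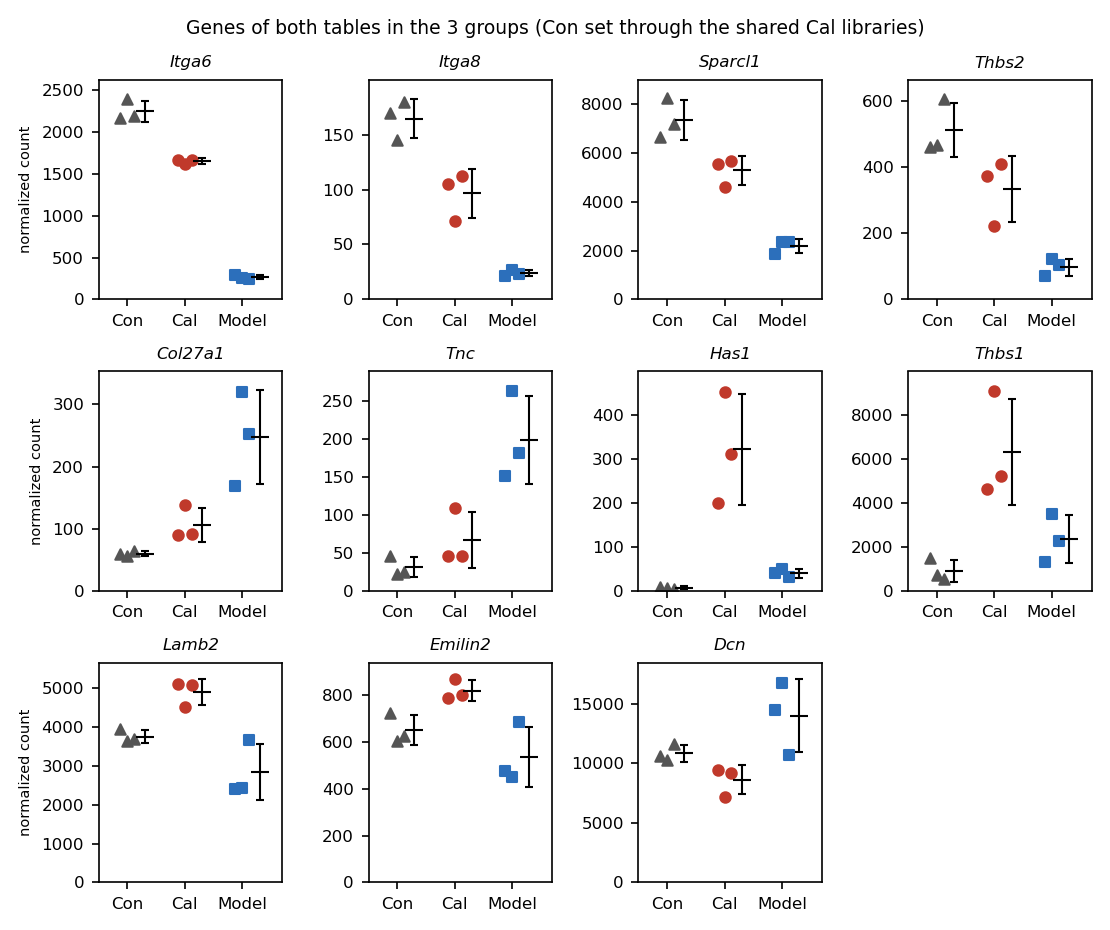
Normalized counts (y axis, from 0) of the 11 genes listed in both tables in each Con-headed (grey triangles), Cal-headed (red circles) and Model-headed (blue squares) library, with mean and SD in black, n = 3; Con-headed values are scaled through the shared Cal-headed libraries. The Cal-headed libraries lie between the others in Itga6, Itga8, Sparcl1, Thbs2, Col27a1 and Tnc (touching the Con-headed ones in Tnc), above them in Has1, Thbs1, Lamb2 and Emilin2, and below them in Dcn, where quantile normalization turned the order of Lamb2 and Emilin2 against the Con-headed and of Dcn against the Model-headed libraries.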

How the data were processed

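The deposited signal of each sample column is a read count divided by a size factor per library, computed by the authors for each table on its own. All values were whole multiples of 1 read within 0.1 read (100%), so whole reads were recovered. Size factors ran from 0.820 to 1.17 and from 0.950 to 1.07 in the 2 tables. Total depth is unknown, because only listed genes were used. The deposited gene length is in bases. The authors' columns of fold changes, p-values and adjusted p-values hold their own comparison and were not used, and their mean columns were used only to check headings.

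The study's methods state alignment to rat reference sequences and a test with DESeq2. The submitters' processing notes name Bowtie 0.12.2 and the mouse builds mm8 and mm9, and the gene identifiers are those of mouse Ensembl genes. The tables name no build, so their gene positions are not printed. How reads of near-identical genes or of antisense strands were counted is not given in the sources used here. Levels per kb use the gene lengths deposited with these mouse identifiers. How completely rat reads were assigned to each gene is not given, so comparisons of level between genes carry this limit.

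Each table was fitted by itself on all its genes with limma 3.58.1 in R 4.3.3 (linear model, trended prior variance) of log2(normalized count + 1), with Benjamini-Hochberg adjustment. The fold change is on that scale and understates the change of low genes. The scripts were tested on simulated data. The samples are labelled as separate, and the methods state 3 animals per group. No library was a duplicate of another, since chi-square per degree of freedom between replicates was 10.7 to 78.3. The second comparison had been planned for model and sham libraries, and its table held the columns headed Cal and Con, which were compared.

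Members and lists were chosen with earlier results of these data known. Named were every listed fibrillar collagen, basement membrane gene and integrin subunit, every other member of both tables, and of the rest the 5 highest and 5 lowest log2 fold changes of each table, with the 2 highest and 2 lowest of the collagen assembly and integrin adaptor lists. A gene covered by this rule enters the counts and is not reported here. Others named were chosen after their values were seen. The members' fold changes and the counts of called members were recomputed with edgeR 4.0.16, with DESeq2 1.42.0, by quantile or median-ratio scaling, with a pseudocount of 0.1 or 10, on genes whose mean reached 10, with a block for the replicate number, with no fold limit, at an adjusted p under 0.01 and with each library left out. Promoter windows were the 250 bases before each RefSeq start in the rat assembly GRCr8, matched by symbol.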

Additional observations from a re-analysis of the deposited data

How the results depend on the processing

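In the Cal and model table the count of called members was 38 to 57 over all alternatives, against 46, and 38 to 47 when 1 library was left out. In 11 of the 46, leaving out 1 library or another ended the call. In the model and sham table it was 6 to 9, against 8, and 6 to 8 when 1 library was left out, except that 22 were called with no fold limit (12 higher and 10 lower in the Cal-headed libraries). The 1 called lower became 3 under quantile normalization and 2 under median-ratio scaling. By the adjusted p alone, 51 of 57 and 13 of 22 members kept their direction and side of the threshold under every alternative. Quantile normalization turned the log2 fold change of Col4a1 to 0.30, Col4a2 to 0.17 and Dcn to 0.15 in the first table, and of Emilin2 to −0.038, Itga7 to −0.14, Lama5 to −0.042 and Lamb2 to −0.070 in the second, the cause of which was not tested.

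No pairing of the animals by replicate number was seen, although 3 libraries per group cannot exclude it. Deviations of same-numbered libraries correlated at 0.110, −0.119 and −0.081 in the first table and −0.023, −0.116 and −0.140 in the second, and not every library correlated best with its own number. With the replicate block the counts were 46 and 8, as without it. Members with at most 8 reads per library in a group (Col22a1, Itgb4, Fbn2, Col8a2 and Col26a1) have folds that depend on the pseudocount. With a pseudocount of 10, the log2 fold change of Itga11 in the first table also fell from 2.90 to 1.97. That of Has1 in the second table fell from 5.39 to 4.33.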
